A study of Mus musculus with 142 samples.

Results

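Olfactory receptor genes lie in large tandem clusters, and 3 of these in the mouse were followed here by replication timing (RT) in mESCs. The intervals were chromosome 2 from 85 to 90.5 Mb, chromosome 7 from 102.3 to 108.9 Mb and chromosome 9 from 37.6 to 40.2 Mb (mm10), and every 50 kb window inside them was taken, with no regard to its value. They hold 110, 132 and 52 windows, 294 of the 49264 windows of the 19 autosomes. GENCODE vM21 lists 646 olfactory receptor genes (Olfr) in the intervals, 519 of them protein-coding, out of 1399 on the autosomes (46.2%), and 232 of the 294 windows overlap at least 1.

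The cells were F121-9, an ESC line from a cross of musculus and castaneus mice, grown in 2i and LIF. E/L Repli-seq labels replicating DNA with BrdU (here for 2 h), sorts cells into early and late S phase and sequences the labelled DNA of both fractions, and RT is the log2 ratio of early to late reads, positive where replication is early. Reads that cover a SNP are given to the musculus or the castaneus homolog, so each library yields a profile of each. The 66 libraries came from 53 clones of 26 deletion lines, and in every line CRISPR removed elements of the Dppa domain on chromosome 16, on 1 homolog or, for some elements, on both. The line names give the elements removed: A, B and C are the early replication control elements (ERCEs), OSN their binding sites for OCT4, SOX2 and NANOG, TSS a promoter, Z a further site, and CL or CR with a length the left or right part of C. No deletion touches chromosomes 2, 7 or 9, no library of the unedited parent is among those used, and all 53 clones were therefore read as replicates of 1 state of these clusters. This is an assumption, since the level of chromosome 7 differed between deletion lines (below). All clones descend from 1 hybrid line and some share a founder clone, so that a p-value over clones measures the spread between these clones only. Where a clone had several libraries they were averaged first.

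Olfactory receptors are G protein-coupled receptors of the sensory neurons of the nose, each of which uses a single allele of a single receptor gene. In most other cells most of the genes are silent, and their clusters are known as AT-rich, late-replicating heterochromatin. Their expression in these ESCs was not examined here. The family grew by tandem duplication, which leaves many near copies side by side. The chromosome 7 cluster surrounds the beta-globin genes (Hbb), which encode the beta chains of haemoglobin, and a group of Trim genes, which encode E3 ubiquitin ligases, several of them antiviral.

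The sequences below show what such windows hold at the start of a receptor gene: those of the 7-window stretch on chromosome 7 in which the homologs differed most (Olfr504 at chr7:108565744-108566043, minus strand; Olfr502 at chr7:108523899-108524198, minus strand; Olfr506 at chr7:108612059-108612358, plus strand; Olfr507 at chr7:108621564-108621863, plus strand), those of the latest well-measured window of each cluster (Olfr584 at chr7:103085270-103085569, plus strand; Olfr1109 at chr2:87093346-87093645, minus strand; Olfr945 at chr9:39258630-39258929, minus strand), and Olfr926 in the chromosome 9 window with the widest spread between clones on castaneus (chr9:38876928-38877227, plus strand). Each runs 5′ to 3′ on the strand of the gene, from 250 bases before to 50 bases after the start that RefSeq gives (GRCm38.p6). Capitals mark ATG where the annotated start is itself that codon, and the homeodomain motif TAATTA. Of the 20 receptor starts in the windows named by rule, 1 held the motif, that of Olfr926.
Olfr504: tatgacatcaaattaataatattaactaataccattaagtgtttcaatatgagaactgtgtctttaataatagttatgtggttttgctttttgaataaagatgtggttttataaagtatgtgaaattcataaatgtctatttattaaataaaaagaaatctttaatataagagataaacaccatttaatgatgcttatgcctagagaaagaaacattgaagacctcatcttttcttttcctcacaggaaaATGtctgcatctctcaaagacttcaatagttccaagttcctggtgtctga
Olfr502: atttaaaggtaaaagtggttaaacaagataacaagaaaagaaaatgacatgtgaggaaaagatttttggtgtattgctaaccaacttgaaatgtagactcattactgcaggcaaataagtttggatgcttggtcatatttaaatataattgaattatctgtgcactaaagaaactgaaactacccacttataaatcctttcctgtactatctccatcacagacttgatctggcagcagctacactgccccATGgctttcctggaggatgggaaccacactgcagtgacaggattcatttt
Olfr506: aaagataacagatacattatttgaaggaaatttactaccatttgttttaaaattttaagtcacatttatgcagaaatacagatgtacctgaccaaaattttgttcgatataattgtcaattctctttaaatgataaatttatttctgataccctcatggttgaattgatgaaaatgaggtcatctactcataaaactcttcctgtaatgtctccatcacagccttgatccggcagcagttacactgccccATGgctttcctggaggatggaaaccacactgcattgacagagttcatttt
Olfr507: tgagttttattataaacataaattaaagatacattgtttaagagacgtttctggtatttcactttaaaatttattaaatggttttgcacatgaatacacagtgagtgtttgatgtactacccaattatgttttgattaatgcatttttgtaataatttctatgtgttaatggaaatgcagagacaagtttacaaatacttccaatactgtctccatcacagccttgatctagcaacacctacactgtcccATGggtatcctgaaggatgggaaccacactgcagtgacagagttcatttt
Olfr584: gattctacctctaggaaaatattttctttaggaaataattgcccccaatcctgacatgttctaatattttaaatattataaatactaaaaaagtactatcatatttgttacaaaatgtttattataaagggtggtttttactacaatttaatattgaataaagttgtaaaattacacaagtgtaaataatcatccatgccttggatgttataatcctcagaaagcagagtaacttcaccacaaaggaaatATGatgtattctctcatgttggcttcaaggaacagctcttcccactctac
Olfr1109: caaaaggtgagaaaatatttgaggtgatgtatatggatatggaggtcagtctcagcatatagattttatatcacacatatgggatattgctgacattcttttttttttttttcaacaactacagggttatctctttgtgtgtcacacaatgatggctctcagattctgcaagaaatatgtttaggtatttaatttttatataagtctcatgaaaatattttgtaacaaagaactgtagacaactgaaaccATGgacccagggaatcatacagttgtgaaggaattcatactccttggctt
Olfr945: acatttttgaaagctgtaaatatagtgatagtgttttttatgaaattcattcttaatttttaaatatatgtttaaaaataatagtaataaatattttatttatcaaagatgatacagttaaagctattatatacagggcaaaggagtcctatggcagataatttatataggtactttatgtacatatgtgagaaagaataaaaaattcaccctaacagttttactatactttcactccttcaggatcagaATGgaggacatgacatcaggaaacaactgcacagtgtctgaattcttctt
Olfr926: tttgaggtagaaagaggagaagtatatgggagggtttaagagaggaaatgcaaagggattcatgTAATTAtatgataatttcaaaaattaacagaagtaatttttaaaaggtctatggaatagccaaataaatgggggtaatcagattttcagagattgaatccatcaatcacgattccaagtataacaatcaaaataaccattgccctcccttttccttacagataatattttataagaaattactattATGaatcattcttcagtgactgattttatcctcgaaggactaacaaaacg
The last 100 bases of Olfr502 and Olfr506 were identical at 91 of 100 positions without gaps, and those of Olfr502 and Olfr507 at 87, while over the first 200 bases the identity was 36.0% and 27.5%. Olfr1109 and Olfr259, which start in neighbouring windows on chromosome 2, shared 81 of these 100. Olfr504, of the same stretch as Olfr502, matched Olfr506 at 33 of them, and Olfr584 and Olfr945, on different chromosomes, matched at 24. Among the 437 RefSeq starts of Olfr genes in the intervals, 71.6% began at an ATG against 5.47% of the 31396 autosomal starts, so that most of these windows precede the coding start and not a mapped transcript start. Their median GC content was 34.0%, against 53% over all promoters. TAATTA, which reads the same on both strands, was in 83 of these 437 (24.6% on chromosome 2, 13.5% on chromosome 7 and 17.5% on chromosome 9), in 18.4% of the Olfr windows elsewhere and in 5.26% of all promoters. These are matches of letters, and AT-rich windows differ from the others in base composition too.

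The first feature of the clusters was how much of them could be read. On chromosome 2 the median profile had a value in 19.1% of the windows (6.36% to 34.5%), on chromosome 7 in 87.9% (71.2% to 93.9%) and on chromosome 9 in 98.1% (82.7% to 100%), where the median over all autosomes was 87.8%. Of the 110 windows on chromosome 2, 64 had no value on either homolog in any library, 61 of them with receptor genes, and 42 of the 64 form an unbroken run from 88.40 to 90.50 Mb (2100 kb, Olfr1178 to Ptprj). On chromosome 7, 8 windows were empty, none with a receptor gene, 7 of them in a row from 105.85 to 106.20 Mb around Gm4070 and Gvin1, an interferon-inducible GTPase. On chromosome 9 none was empty. No library lacked a whole chromosome 2, 7 or 9.

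**Figure D1:**
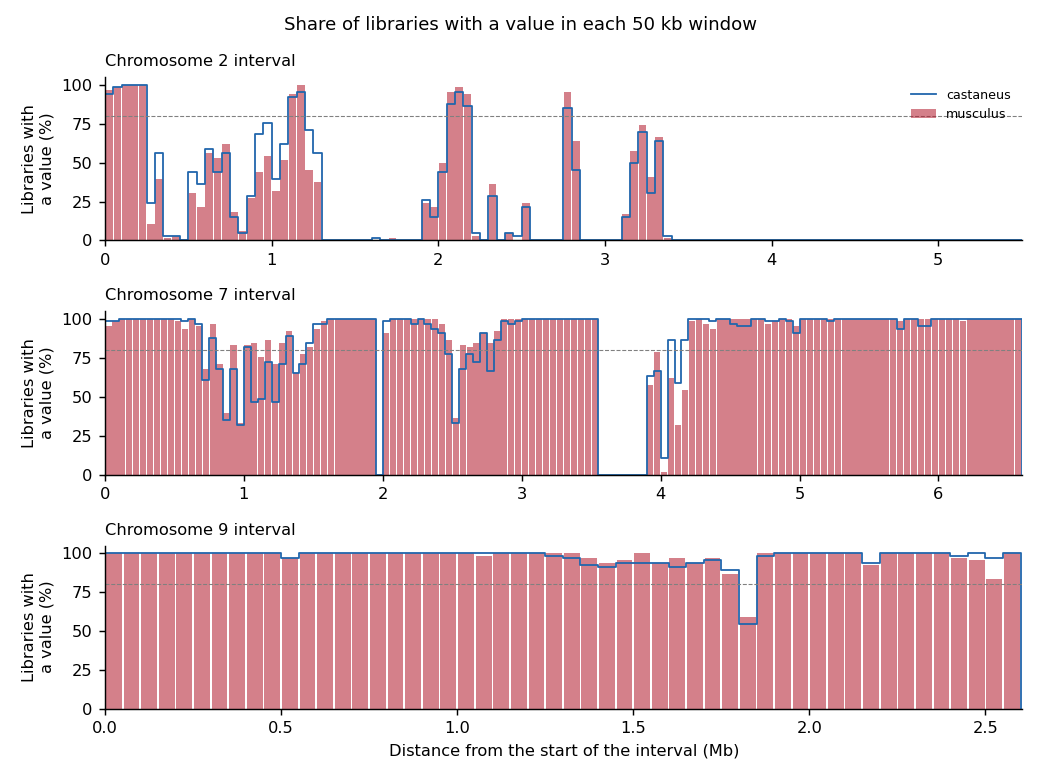
Percent of the 66 libraries with a value (y axis) in each 50 kb window, against the distance from the start of the interval in Mb (x axis), as bars for musculus and a line for castaneus. The dashed line marks 80%. On chromosome 2 few windows reach it and the last 2.1 Mb are empty on both homologs, while chromosome 9 has 1 window below it.

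Empty windows were not the same kind of sequence in each cluster. The share of 32-base words of a window that occur once in the genome was 1.66% (median) in the empty windows of chromosome 7 and 3.20% in 20 empty windows among every 40th autosomal window. In the empty windows of chromosome 2 it was 74.8%, close to the 78.8% of the well-measured windows of chromosome 9 and the 79.7% of those of chromosome 7, against 91.4% in 979 well-measured windows among every 40th. SNP positions, which decide whether a read can be given to a homolog, were not used here, and their part in the empty stretch was not tested. The share with a value differed between musculus and castaneus by −0.41 ± 2.60 percentage points on chromosome 2 (SD, n = 53 clones, permutation test of sign flips, adjusted p = 0.403 over the 3 clusters) and by 0.03 ± 2.51 on chromosome 9 (adjusted p = 0.962). On chromosome 7 it was higher on musculus by 1.32 ± 2.59 points, in 29 clones against 13 (adjusted p = 0.00135), where the mean over all autosomes was 0.611.

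A window is called well measured below if it has a value in at least 80% of the libraries on each homolog. That left 11 windows on chromosome 2, 100 on chromosome 7 and 51 on chromosome 9 (162 in all, against 79.1% of the windows of the table). Only 6 of the 11 on chromosome 2 hold receptor genes, and 5 are the edge from 85 to 85.25 Mb with P2rx3, Ssrp1, Tnks1bp1, Aplnr and Lrrc55. On chromosome 2, 2 libraries stood apart through single windows. In ∆COSN123 clone A10, library 4, castaneus values were 17.4 at 86.10 Mb and 22.6 at 87.05 Mb, the second being the highest of the whole table, and in ∆A.COSN123 clone C9 the musculus values were −6.16 at 87.05 Mb and −6.66 at 87.10 Mb. Each of these 2 profiles had a value in only 7.27% of the chromosome 2 windows, against 19.1% in the median profile. Their means over the interval thus rest on few windows. Of all values of the table, the lowest 0.1% lay below −1.94 and the highest 0.1% above 1.75. Results over the well-measured windows of chromosome 2 are given with all values, and those that rest on these windows also without values beyond 3 in size.

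Taken over the well-measured windows, the 3 intervals were late to intermediate, and none was late throughout. On chromosome 2 the windows above 0 were all at the edge without receptor genes, and every well-measured receptor window was below 0. The median window was at −0.48 on chromosome 2, −0.34 on chromosome 7 and −0.47 on chromosome 9, and 117 of the 162 windows were below 0 (72.2%), against 45.6% of all well-measured windows, whose median was 0.17. The 1 Mb flanks of the intervals had a median of 1.15, with 1 of 98 windows below 0. Olfr windows elsewhere on the autosomes had a median of −0.29 and 58.3% below 0, and windows with vomeronasal receptor genes (Vmn1r and Vmn2r, the receptors of the pheromone organ) of −0.48 and 68.7%. The receptor windows inside the intervals alone had a median of −0.57, with 84.4% below 0. The latest 10% of all windows lie below −1.2.

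Of the cluster means over clones, taken over all well-measured windows, that of chromosome 7 was the highest on both homologs. Over receptor windows alone chromosomes 7 and 9 were alike. With the homologs averaged they were at −0.46 ± 0.10 (67 windows) and −0.45 ± 0.10 (49 windows). On chromosome 7 the mean over 100 windows was −0.21 ± 0.08 (SD, n = 53 clones) on musculus, with a lowest clone of −0.41, a median of −0.21 and a highest of 0.02, and −0.20 ± 0.09 on castaneus (−0.43, −0.20 and 0.01). On chromosome 9 it was −0.37 ± 0.11 on musculus (−0.60, −0.37 and −0.09) and −0.40 ± 0.10 on castaneus (−0.58, −0.43 and −0.17). On chromosome 2 it was −0.43 ± 0.25 on musculus (−1.83, −0.41 and −0.03) and −0.26 ± 0.25 on castaneus (−0.69, −0.30 and 0.95), where both farthest clones are those of the 2 libraries named above. Without values beyond 3 the level of chromosome 2 over both homologs was −0.35 ± 0.14, against −0.36 ± 0.25. Over the 6 receptor windows alone the mean was −0.91 ± 0.47 (clones from −3.68 to 0.25), and −0.89 ± 0.20 (−1.34 to −0.37) without values beyond 3.

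**Figure D2:**
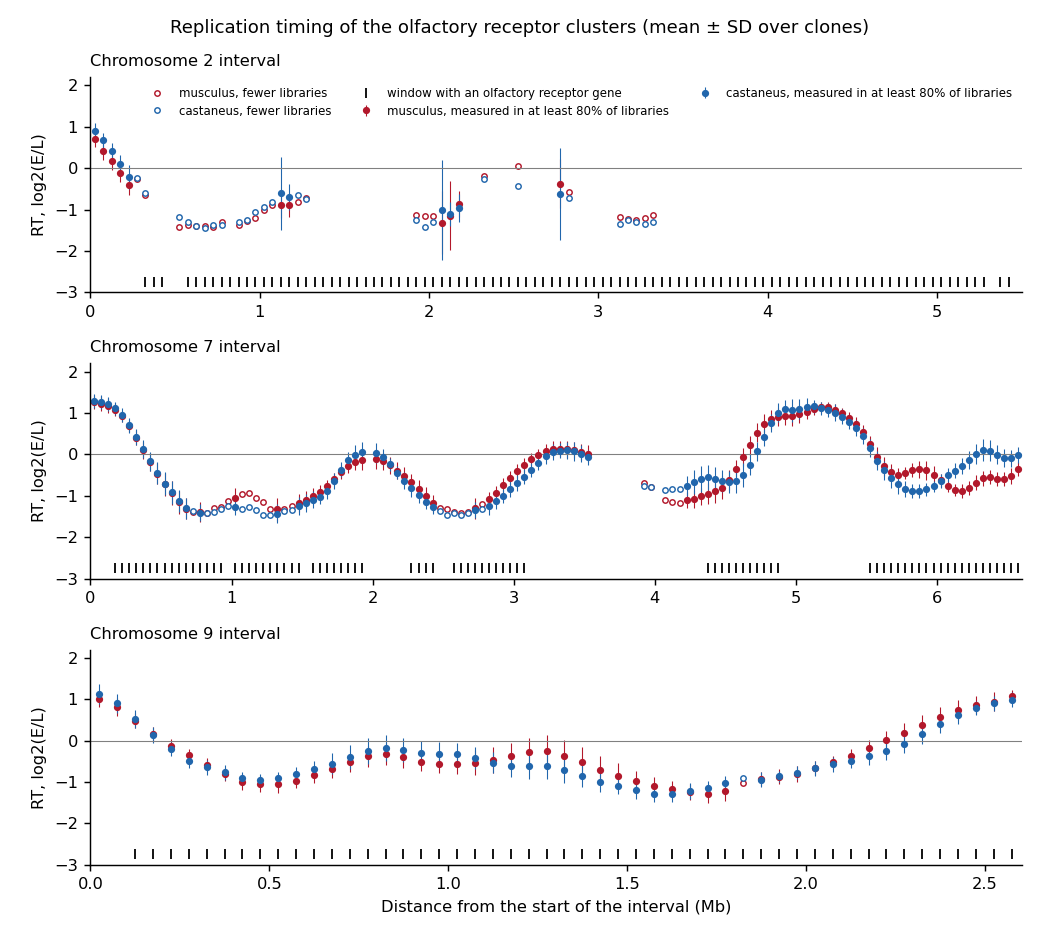
RT in log2(E/L) (y axis) of each 50 kb window against the distance from the start of the interval in Mb (x axis), as the mean over clones with the SD as a bar for well-measured windows (filled, musculus red, castaneus blue), and the mean alone for windows with fewer libraries (open, at least 20 values over both homologs). Ticks mark windows with an olfactory receptor gene. Among well-measured windows chromosome 7 falls from 1.28 to −1.40 and rises again to 1.13 at Syt9, and chromosome 9 falls below 0 between early edges with shallow maxima inside.

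On chromosome 2 the profile fell from 0.81 at 85 Mb, the earliest well-measured window (P2rx3, an ATP-gated ion channel, and Ssrp1, a subunit of the FACT histone chaperone), through 0 at Lrrc55 to −0.31 at 85.20 Mb. The latest well-measured window was at 87.05 Mb (Olfr1106, Olfr1107 and Olfr1109), with a mean of −1.22 (−1.20 without values beyond 3). Its median clone was at −1.26 on musculus and −1.24 on castaneus. Between and beyond lie windows with a value in fewer libraries, of which 24 were measured in at least 10 clones on each homolog. Their medians over clones ran from −1.40 to 0.03, 23 of the 24 were below 0 and 16 below −1. The lowest stood from 85.50 to 85.90 Mb (Olfr996 to Olfr1023), and again from 88.10 to 88.35 Mb (Olfr1165 to Olfr1177). The window at 87.50 Mb, which holds Pramel6 beside Olfr153 and Olfr1128, had medians of 0.18 on musculus and −0.43 on castaneus and values in 16 libraries on musculus and 14 on castaneus.

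Chromosome 7 was the most uneven of the 3. Its earliest window, at 102.30 Mb, was at 1.28 and holds Stim1, the calcium sensor of the endoplasmic reticulum, and Rrm1, the large subunit of ribonucleotide reductase, follows at 102.40 Mb. RT fell across the first receptor genes (Olfr543 to Olfr557) and reached its lowest value among well-measured windows, −1.40, at 103.05 Mb (Olfr583, Olfr584 and Olfr585). The window at 104.90 Mb, with a value in 79.5% of the libraries, was at −1.44. The 2 windows with the beta-globin genes were late as well, at −1.14 (Hbb-bt, Hbb-bs, Hbb-bh2 and Hbb-bh1) and −1.05 (Hbb-y), with a mean of −1.10 ± 0.18 over clones. The 6 well-measured windows with Trim genes and no receptor gene had a mean of −0.21 ± 0.15. In the array they ran from −0.04 at Trim12a, Trim34b and Trim12c to −0.57 at Trim30d, and the window of Trim3, further right, was at 0.11. The ranges of the clones did not overlap between the groups: the highest clone was at −0.67 over the globin windows and the lowest at −0.55 over the Trim windows.

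The receptor array of chromosome 7 is split by a stretch of other genes from Fam160a2 to Mrpl17 (10 windows, among them Cckbr, Ilk, Taf10 and Tpp1), whose mean was −0.03 ± 0.16, no window above 0.11. Left of it the 33 well-measured receptor windows were at −0.61 ± 0.12, and right of it the 33 others at −0.31 ± 0.11. The right part holds an early peak inside the cluster, with the 4 windows of Syt9 (a synaptotagmin) at 1.11 ± 0.11, with a lowest clone of 0.80. Receptor genes next to it were early too: Olfr716, at 107.15 Mb with Nlrp14, was at 0.96, and Olfr714 and Olfr17, at 107.05 Mb, were at 0.57.

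On chromosome 9 nearly every window holds receptors, 50 of 52. The earliest well-measured window was the left edge at 37.60 Mb (Siae, Spa17 and Tbrg1), at 1.07, and the right edge at 40.15 Mb (Olfr986, Tmem225 and Zfp202) was at 1.03. Between them RT had lows of −1.01 at 38.05 Mb (Olfr884, Olfr885 and Olfr887) and −1.23 at 39.25 Mb (Olfr945), the latest window. Higher RT lay between these lows, at −0.25 at 38.40 Mb (Olfr147, Olfr901 and Olfr902) and −0.44 at 38.85 Mb (Olfr924, Olfr26 and Olfr926).

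Within each interval, well-measured windows with a receptor gene were later than those without. The difference was −0.77 ± 0.08 on chromosome 7 (67 against 33 windows, lower in 53 of 53 clones), −1.41 ± 0.16 on chromosome 9 (49 against 2, 53 of 53) and −1.17 ± 0.46 on chromosome 2 (6 against 5, 52 of 53), each with an adjusted p of 1.0e-05 over the 3 clusters in a two-sided permutation test by sign flips over clones, the smallest that 100000 resamples give. Without values beyond 3 that of chromosome 2 was −1.15 ± 0.24, lower in 53 of 53. The windows compared are the same in every clone. The test asks whether the contrast repeats between clones and does not use the spread between windows. On chromosomes 2 and 9 the windows without receptors are edge windows only, so that position and gene content cannot be told apart there.

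The borders where RT crossed 0 were located in each clone by linear interpolation, a measure added after the profiles had been seen. On chromosome 9 the right border lay at 39.83 Mb on musculus and 39.89 Mb on castaneus, and the crossing on musculus minus that on castaneus was −56.4 ± 45.6 kb (further left on musculus in 48 of 53 clones, sign flips, adjusted p = 2.0e-05 over the 4 borders), beside Olfr970, Olfr971 and Olfr972. On chromosome 2, in the 41 clones in which both homologs crossed within the measured edge, the border was at 85.14 Mb on musculus and 85.18 Mb on castaneus, a difference of −39.9 ± 24.2 kb (further left on musculus in 39 of 41, adjusted p = 2.0e-05). No value beyond 3 lay in the 5 windows used there. The left border of chromosome 9 differed by 7.88 ± 26.3 kb (30 of 53 clones, adjusted p = 0.0453). At the left border of chromosome 7, at 102.70 Mb on both, it differed by −3.68 ± 20.1 kb (adjusted p = 0.187).

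In the cluster means the homologs differed little. The musculus minus castaneus difference was −0.01 ± 0.05 on chromosome 7 (SD, n = 53 clones, 28 above 0 and 25 below; adjusted p = 0.274, two-sided permutation test by sign flips). As a median over windows it turned to 0.02 (permutation p = 0.00163), and with the borders moved inwards by 0.25 Mb to 0.02 (permutation p = 0.00153). On chromosome 9 it was 0.03 ± 0.06 (36 above 0 and 17 below, adjusted p = 7.0e-04), and with the homologs taken as unpaired samples that p was 0.151. It was 0.0099 over windows in at least 95% of libraries (permutation p = 0.265) and 0.018 as a median over windows (permutation p = 0.0821). With deletion lines as units it was 0.031 (permutation p = 0.0105). On chromosome 2 it was −0.12 ± 0.17 (43 of 53 clones below 0, adjusted p = 3.0e-05), and −0.10 ± 0.13 without values beyond 3. It was not the same across this interval: over the 5 windows without receptors, which cover the gene-rich border, it was −0.23 ± 0.12 (51 of 53 clones below 0), and over the 6 receptor windows −0.02 ± 0.27 (23 of 52 clones below 0, p = 0.54 by permutation). Without values beyond 3 the latter turned to 0.02 ± 0.19 (21 of 52 below 0, permutation p = 0.428). This mean joins receptor windows that went opposite ways. At 86.15 Mb the difference was −0.19 (43 of 51 clones below 0, adjusted p = 4.5e-08, limma). At 87.15 Mb it was 0.12 (31 of 47 above 0, adjusted p = 0.0158, limma), and at 87.75 Mb 0.24 (40 of 46 above 0, adjusted p = 0.184, limma).

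Single windows differed in both directions. Across the table limma tested 37704 windows, and 67.1% had an adjusted p of at most 0.05. With a difference of at least 0.5 as well, 6.24% were called (2.81% earlier on musculus and 3.43% earlier on castaneus). Of the 162 windows tested in the clusters, 123 had an adjusted p of at most 0.05 and 8 were called, 1 earlier on musculus and 7 earlier on castaneus (4.94%), a share near that of the table. All 8 lie on chromosome 7. None was called among the 11 on chromosome 2 and the 51 on chromosome 9. There limma gave 8 and 43 with an unadjusted p of at most 0.05, against 26032 of 37704 over the table. At a difference of 0.25, 38 of the 162 passed, against 21.8% of the table (23.5% here).

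**Figure D3:**
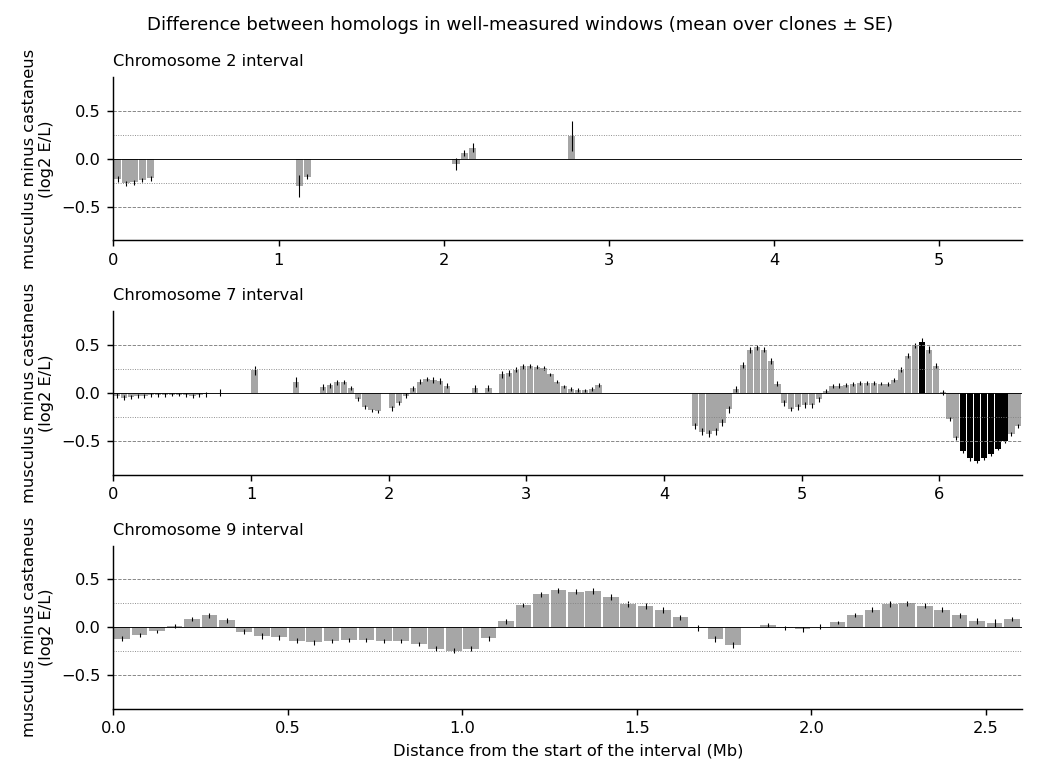
The musculus minus castaneus difference in log2(E/L) (y axis), as the mean over clones with its SE, of each well-measured window against the distance from the start of the interval in Mb (x axis). Black bars are the 8 called windows, and lines mark 0.25 (dotted) and 0.5 (dashed). The sign changes several times along chromosomes 7 and 9, and the right end of chromosome 7 goes from 0.53 to −0.70 within 400 kb.

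The 7 called windows earlier on castaneus are neighbours, from 108.45 to 108.80 Mb on chromosome 7, and hold 16 Olfr genes (Olfr498 to Olfr513), 11 of them coding, and no other coding gene. Over this stretch musculus was at −0.67 ± 0.15 (lowest clone −1.10, median −0.66, highest −0.36) and castaneus at −0.05 ± 0.22 (−0.45, −0.06 and 0.45). The castaneus homolog was earlier in 53 of 53 clones, by 0.28 to 0.92, although the ranges of the homologs overlap slightly. The 3 largest window differences were −0.70 at 108.55 Mb (SE 0.02, adjusted p = 2.4e-37, limma; Olfr504), −0.68 at 108.50 Mb (SE 0.03, adjusted p = 1.4e-34; Olfr502 and Olfr503) and −0.68 at 108.60 Mb (SE 0.02, adjusted p = 2.4e-37; Olfr506, Olfr507, Olfr508 and Olfr509). The castaneus profile had a local maximum in this stretch, up to 0.10 at 108.60 Mb, where musculus was at −0.58. Profiles were smoothed over 300 kb, so these windows are not separate observations.

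Directly left of it the order was the reverse. From 108.05 to 108.30 Mb (5 windows, Olfr479 to Olfr490) musculus was at −0.41 ± 0.18 and castaneus at −0.84 ± 0.14, and musculus was earlier in 53 of 53 clones, by 0.43 ± 0.22. The single window here past 0.5 was at 108.15 Mb (Olfr485 and Olfr486), at 0.53 (SE 0.04, adjusted p = 5.7e-21, limma; 49 of 50 clones). Of the windows from 108.05 to 108.80 Mb, musculus was earliest at 108.15 Mb, at −0.35, and castaneus at 108.60 Mb.

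**Figure D4:**
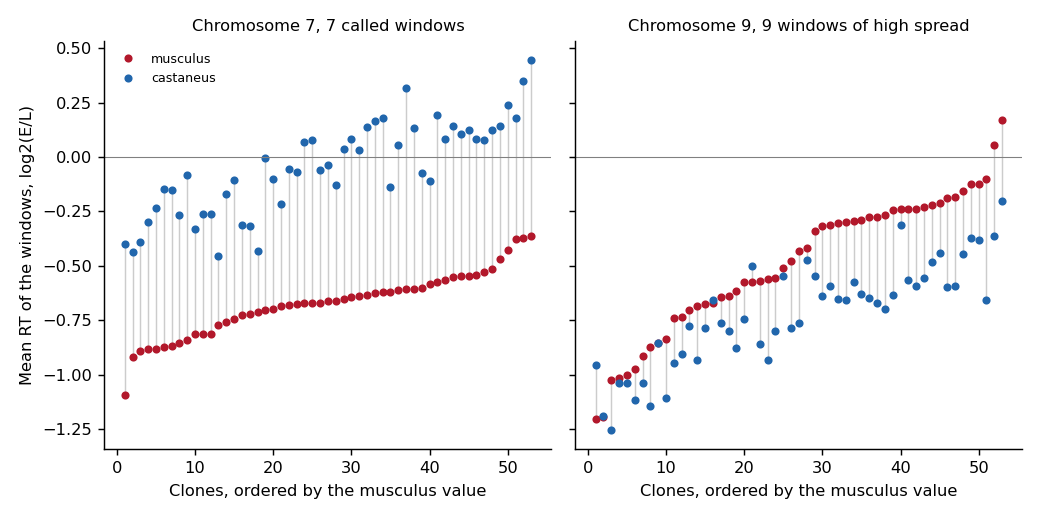
Mean RT in log2(E/L) (y axis) of each of the 53 clones on musculus (red) and castaneus (blue), joined by a line and ordered by the musculus value (x axis). Left, the 7 called windows of chromosome 7, where castaneus lies above musculus in every clone. Right, the 9 neighbouring windows of chromosome 9 chosen by their spread between clones on musculus. There the lowest clones are at −1.20 on musculus and −1.26 on castaneus.

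Smaller stretches also passed 0.25 on chromosome 7. From 106.50 to 106.75 Mb, which has no coding gene in its first windows and Olfr693 to Olfr698 in the others, castaneus was earlier by 0.37 ± 0.24 in 48 of 53 clones, with musculus at −1.01 and castaneus at −0.64. From 106.85 to 107.10 Mb (Olfr704 to Olfr17, 14 receptor genes) musculus was earlier by 0.40 ± 0.16 in 53 of 53 clones, at 0.21 against −0.17, on the slope that rises to Syt9. From 105.25 to 105.45 Mb (Olfr687 to Olfr692, then Fam160a2, Cnga4 and Cckbr) musculus was earlier by 0.27 ± 0.14 in 51 of 53. At Syt9 itself the difference was −0.03 ± 0.15, with 25 clones on one side and 28 on the other, and at the 2 beta-globin windows 0.07 ± 0.19.

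On chromosome 9 the largest stretch past 0.25 ran from 38.80 to 39.05 Mb (16 receptor genes, Olfr922 to Olfr936, with Olfr26 and Olfr146). There musculus was at −0.43 ± 0.34 and castaneus at −0.77 ± 0.27, and musculus was earlier in 51 of 53 clones by 0.36 ± 0.16. To its left, castaneus was earlier at every one of the 14 windows from 38.00 to 38.70 Mb with an adjusted p of at most 0.05, by 0.25 at most (at 38.55 Mb, Olfr912 and Olfr913; 47 of 53 clones, adjusted p = 6.6e-13, limma). The right slope, up to Olfr972 at 39.85 Mb, was earlier on musculus by up to 0.25.

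The spread between clones was judged by the SD over clones on each homolog, with the 90th percentile of all well-measured windows (0.27 on both) as the mark, which 10% of the table exceed. On chromosome 7 it was exceeded by 5 of 100 windows on musculus and 9 on castaneus, fewer than or near that share. On chromosome 9 it was exceeded by 10 of 51 windows on musculus and 12 on castaneus, and on chromosome 2 by 6 and 7 of 11. The 6 receptor windows of chromosome 2 were all above it on both homologs, up to 0.83 on musculus (87.10 Mb, Olfr259 and Olfr1110) and 1.2 on castaneus (87.05 Mb). At 87.10 Mb the musculus values ran from −6.66 to −0.15 with a median of −1.05, and at 87.05 Mb the castaneus values from −1.84 to 6.74 with a median of −1.24, and the farthest values were those of the 2 clones named above. Without values beyond 3 these SDs were 0.31 and 0.42, and the receptor windows above the mark were 6 of 6 on musculus and 5 of 6 on castaneus.

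**Figure D5:**
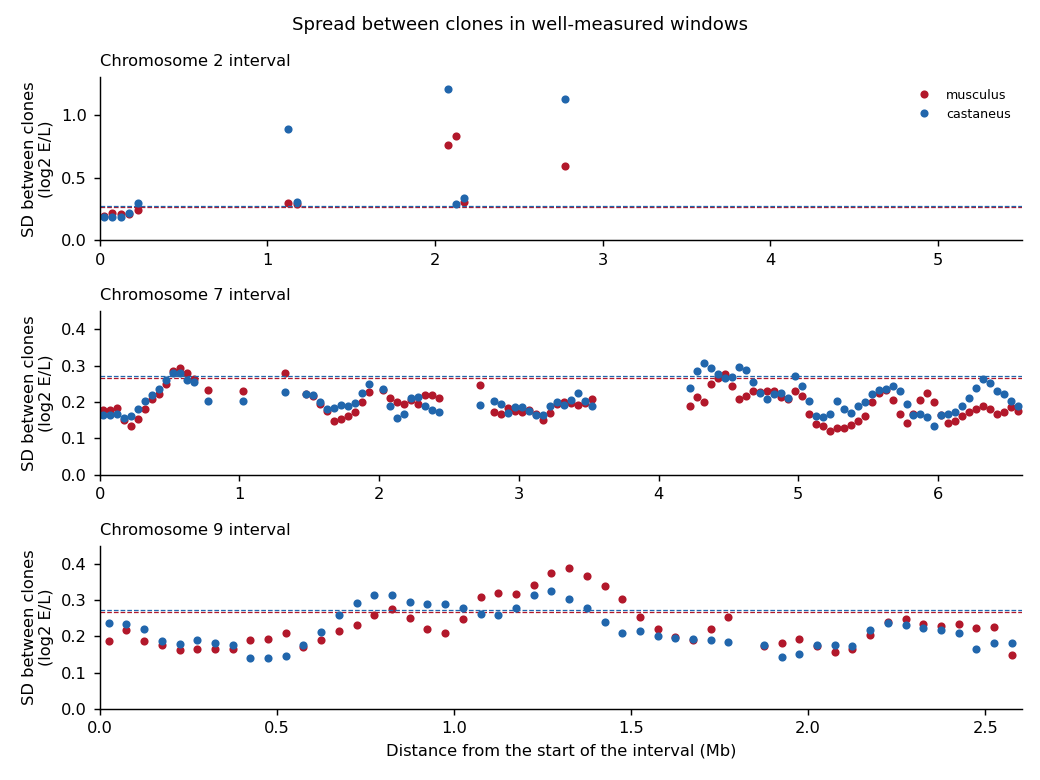
SD between clones in log2(E/L) (y axis) of each well-measured window on musculus (red) and castaneus (blue), against the distance from the start of the interval in Mb (x axis), with the 90th percentile of the table dashed. The scale of chromosome 2 is wider. The receptor windows of chromosome 2 and a broad rise in the middle of chromosome 9 lie above the line.

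No value beyond 3 lay behind the rise on chromosome 9. Its 9 neighbouring windows above the mark on musculus, from 38.65 to 39.10 Mb (18 coding receptor genes), were chosen by their spread and are described here without a test. On castaneus the windows above the mark lay from 38.30 to 38.65 Mb and from 38.75 to 39.00 Mb, partly outside this stretch. Over the 9 windows the clones ran from −1.20 to 0.17 on musculus, with a median of −0.43. On castaneus they ran from −1.26 to −0.20 with a median of −0.66. The SD was 0.32 on musculus and 0.24 on castaneus but 0.16 for the difference between homologs of a clone, less than on either homolog alone. The widest windows were 38.90 Mb on musculus (Olfr930, SD 0.39, from −1.30 to 0.55) and 38.85 Mb on castaneus (Olfr26 and Olfr926, SD 0.33, from −1.43 to −0.09). Among the 11 clones with repeat libraries, the within-clone SD was 0.17 on musculus, against 0.23 between clone means. The 4 libraries of ∆COSN123 clone A10, from separate cultures, were at −0.80, −0.86, −0.43 and −0.22 on musculus, so that libraries of 1 clone differed as well. Among the 19 lines with at least 2 clones, line means of both homologs ran from −1.20 (∆CL20k, 2 clones, −1.21 and −1.19) to −0.23 (∆A.COSN12, 2 clones, −0.30 and −0.15). No deletion lies on chromosome 9, and what else the clones of a line share was not tested.

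Averaged over whole clusters, clones were set against their own repeat libraries. In the 11 clones with 24 libraries the ratio of the mean square between clones to that within was 7.87 for castaneus on chromosome 7 (SD within a clone 0.04, between clone means 0.08; permutation of libraries, adjusted p = 0.00696 over the 6 cluster and homolog pairs). For musculus on chromosome 7 it was 1.16 (adjusted p = 0.78), on chromosome 9 it was 1.54 on musculus and 3.07 on castaneus (0.532 and 0.187), and on chromosome 2 it was 2.60 on musculus and 0.40 on castaneus (0.243 and 0.402). For the difference between homologs the ratio was 7.41 on chromosome 7 and 6.29 on chromosome 9 (adjusted p = 0.00423 for both), with a within-clone SD of 0.03 and 0.04, and 0.42 on chromosome 2 (adjusted p = 0.265). The castaneus and difference ratios of chromosome 2 include library 4 of ∆COSN123 clone A10, and the within-clone SD was 1.51 on castaneus and 0.83 for the difference. Without values beyond 3 these SDs were 0.20 and 0.15 and the ratios 1.12 and 1.16 (permutation p = 0.757 and 0.714, not adjusted).

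Between deletion lines, tested in the same manner over the 46 clones of 19 lines after the values had been seen, the level of chromosome 7 differed (ratio 3.67, adjusted p = 0.0151 over 6 tests), from −0.36 in ∆ATSS.BTSS.CTSS (3 clones, −0.40 to −0.31) to −0.02 in ∆CR14.6k (2 clones, −0.05 and 0.01). The other 5 tests, of level and of difference between homologs, had adjusted p from 0.117 to 0.929. Profile medians over all autosomes also differed, from −0.18 to 0.31 on musculus, and their part in the level was not tested.

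Finally, the musculus minus castaneus differences of the clusters were compared across the 53 clones. For chromosomes 7 and 9 Pearson's r was 0.45 (permutation p = 7.4e-04, adjusted p = 0.00222 over 3 pairs) and Spearman's rho 0.35 (permutation p = 0.0111, adjusted p = 0.0166), and without the 2 clones farthest from the median on chromosome 7 r was 0.39. With each profile centred on its own median r was 0.30 (permutation p = 0.0285). For chromosomes 2 and 7 r was 0.23 (permutation p = 0.0969, adjusted p = 0.104), rho 0.21 (p = 0.133 by permutation, adjusted p = 0.133), and r without the 2 farthest 0.37, while with centred profiles it was 0.13 (permutation p = 0.351). For chromosomes 2 and 9 r was 0.23 (permutation p = 0.104, adjusted p = 0.104), rho 0.35 (permutation p = 0.00944, adjusted p = 0.0166), and r without the 2 farthest 0.31, while with centred profiles it was 0.12 (permutation p = 0.378). With values beyond 3 left out r was 0.36 for chromosomes 2 and 7 (permutation p = 0.00788, adjusted p = 0.0118) and 0.31 for 2 and 9 (permutation p = 0.0246, adjusted p = 0.0246), and rho was 0.23 (permutation p = 0.0906, adjusted p = 0.0906) and 0.37 (permutation p = 0.00694, adjusted p = 0.0161). The differences of a clone come from the same libraries on all chromosomes.

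Values among these lowest and highest 0.1% of the table were set apart. On chromosome 2, 23 of 2878 values lay outside (0.799%, against 0.198% of the table), 9 of them beyond 3 in size. On chromosome 7, 19 of 15016 did (0.127%), from −2.21 to 1.78, and on chromosome 9, 1 of 6697. Among windows short of the 80% mark, which hold 1487 of the values of chromosome 2, 12 lay outside: at 87.30 Mb (Olfr1118) −3.61 on musculus in ∆CTSS clone C12 and 1.76 on castaneus in ∆A.COSN12 clone D6, and at 88.30 Mb (Olfr1176) 3.20 on musculus in ∆A.COSN123 clone D8 and −3.23 and −2.93 on castaneus in 2 other lines. Further ones were −3.06 at 88.20 Mb (Olfr1170), −2.44 at 86.25 Mb (Olfr1049 and Olfr1051), and between −2.07 and −1.95 at 85.55, 85.70, 86.90 and 87.80 Mb, with 1.77 on the other homolog at 87.80 Mb. The 12 in short windows of chromosome 7 were all low, from −2.21 to −1.96, between 103.00 and 104.95 Mb. Of these, 10 came from the castaneus profile of library 1 of ∆CTSS clone C12. With 2 values in well-measured windows, that library gave 12 of the 19 on chromosome 7, and without it 2 and 7 are left. On chromosome 2 the well-measured window at 87.75 Mb (Olfr1141 and Olfr152) held 6 such values, from −2.85 to 6.20.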

How the data were processed

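The deposited table holds, for each library and homolog, log2(E/L) in 50 kb windows of mm10. The authors trimmed reads with Trim Galore, aligned them with bowtie2 to an mm10 genome masked at SNPs, split them by homolog with SNPsplit, removed duplicates, counted them per window, and then scaled, quantile-normalized and loess-smoothed (300 kb) the log2 values. Versions are not given in the sources used here. In the column names genome 1 was taken as the musculus (129) and genome 2 as the castaneus (CAST) homolog, since lines that the labels name as 129 deletions carry the deletion mark on genome 1. All 138 columns were used. They belong to 66 libraries of 53 clones, and the repeat runs of 3 clones were averaged. The labels list 142 samples, early and late fractions apart, and 10 without a column were not analysed here. Depth per library is unknown, since only ratios are given, so precision rests on the spread between clones.

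Values were averaged per clone. Per-window differences between homologs were fitted with limma 3.58.1 (R 4.3.3) on clone differences over all windows with both homologs in at least 43 clones, with Benjamini-Hochberg adjustment, called at an adjusted p of 0.05 and a difference of 0.5. Tested on simulated musculus minus castaneus differences over the 37704 windows, it called 100 of 100 windows shifted by 0.6, 100 of 100 shifted by 1 and 0 of 37504 unshifted. The simulated noise was independent between windows and clones, without the smoothing, extreme values or shared founders of the data. The shifts also lay past the cut-off of 0.5, so the simulation checks the fit and gives no support to the calls. Cluster values were tested by two-sided permutation of 100000 resamples (numpy 2.4.6). The homologs were paired within each clone because they come from the same cells. Genes are GENCODE vM21 and gene starts RefSeq GRCm38.p6, and 428 of 519 coding receptors had a start. Unique 32-base words were counted in GRCm38.p6. Windows named are, per interval, the earliest and latest well-measured, the 3 called with the largest difference, the widest spread on each homolog, and windows short of 80% with a value among the lowest or highest 0.1%; others were named for their genes or stretches after their values were seen. The clusters, lists and tests were chosen with earlier results of these data known. Alternatives were the unit, the filter, the borders, the mean, centring, receptor windows, call thresholds and lines left out; leaving out values beyond 3 was added after the data were seen.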

Additional observations from a re-analysis of the deposited data

Results flagged for a closer look

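Library values of a line with 4 to 10 libraries were compared within the line, in 45 groups over the 3 clusters and 5 lines, and 5 held a library far from the rest by Dixon's criterion. Chance gives about 1 in 20, but the 5 are not independent, since the same library was flagged more than once. In ∆A.COSN123, clone C9 stood at −1.83 on musculus over the well-measured windows of chromosome 2, with the other 3 libraries from −0.53 to −0.45, and at −0.30 once 2 values beyond 3 were left out. On castaneus the same library was at −0.017, with the others from −0.42 to −0.36. In ∆COSN123, library 4 of clone A10 was at 6.03 on castaneus over the same windows, with the others from −0.47 to −0.09, and its musculus minus castaneus difference was −3.54, with the others from −0.16 to −0.05. Without its 2 values beyond 3 these were 0.43 and −0.59. Both libraries had a value in few windows of chromosome 2, 7.27% on the homolog with the values beyond 3. In ∆A.B.COSN123, library 1 of clone 5A.7 was at −0.21 on musculus over chromosome 7, with the others from −0.14 to −0.13. The others lay close together, and −0.21 was also the mean over all clones there (SD 0.08).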

How the results depend on the processing

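Of 198 recomputed values, 166 kept their direction and side of the threshold, or stayed within the spread. These include, for each cluster, 26 settings with 1 deletion line left out. Such settings share most clones with the main result and could hardly change it. The homologs of a clone are paired by origin. With no replicate block, the chromosome 9 difference was 0.030 with p = 0.151 (permutation); it was also 0.0099 (p = 0.265) over windows in at least 95% of libraries and 0.018 (p = 0.0821) as a median. The chromosome 2 difference was −0.023 (p = 0.54) over receptor windows, and the same with the borders moved inwards by 0.25 Mb, which leaves the same 6 windows. The chromosome 7 difference of −0.01 turned to 0.00099 (p = 0.878) with no filter, 0.021 (p = 0.00163) as a median, 0.0085 (p = 0.132) with centred profiles and 0.022 (p = 0.00153) with borders moved; the cause was not tested. With a deletion line left out, the differences ran from −0.13 to −0.11 on chromosome 2, −0.01 to −0.00311 on chromosome 7 and 0.03 to 0.04 on chromosome 9. With deletion lines as units they were −0.14 (permutation p = 1.0e-05), −0.0068 (permutation p = 0.435) and 0.031 (permutation p = 0.0105).

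Levels moved to −0.72 and −0.37 on chromosomes 2 and 7 with no filter, to −0.91 and −0.46 over receptor windows, to −0.10 on chromosome 7 over windows in at least 95% of libraries, and to −0.34 and −0.50 on chromosomes 7 and 9 as medians. At a difference of 0.25, 8237 windows of the table were called, and 38 in the clusters (2, 30 and 6 on chromosomes 2, 7 and 9); at 1 these were 195 and 0, with 0 on chromosome 7. With windows in at least 10 clones, 39 had a high spread on musculus, 23 of them on chromosome 2, where castaneus had 22. By the SD of the difference between homologs there were 18 in all, 4 on chromosome 2, 12 on chromosome 7 and 2 on chromosome 9. Depth is unknown, so counting error could not be set apart from spread.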
